A study of Mus musculus with 7 samples.

Results

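The 39 genes described here are listed risk genes for autism and other neurodevelopmental disorders. They were chosen by symbol and not by a rule on measured values, but with earlier results of these data known. Of these, 38 had a row in all 7 count tables, out of 23413 gene symbols found in any table, and Auts2 was not analysed here. By the role of the protein, the 38 comprise 12 chromatin remodellers and histone modifiers, 9 transcription factors and coregulators, 8 proteins of synapses, adhesion, ion channels and the extracellular space, 6 of growth signalling, kinases and ubiquitin ligases, and 3 RNA-binding proteins.

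The cells came from the dissected cortices of 7 mouse embryos of 1 litter, collected at E18.5. All 7 embryos carried floxed Ash1l on both alleles (Ash1lfl/fl), and all were exposed to the tamoxifen (100 mg/kg) that their mother received at E10.5. The 4 mutants (replicates 10, 11, 12 and 17) also carried Emx1CreERT2, a tamoxifen-activated Cre recombinase driven by Emx1, a gene of dorsal telencephalic progenitors. The 3 controls (replicates 14, 15 and 16) carried no Cre. Emx1-lineage cells include the glutamatergic neurons of the cortex, whereas cortical interneurons arise elsewhere. The labels state neither which part of Ash1l is floxed nor the embryos' sex or library batch. Each embryo gave 1 Seq-Well library, a method that captures single cells with barcoded beads in small wells and counts transcripts by unique molecular identifiers (UMIs). Tests compared embryos, not cells, and since all came from 1 litter their p-values measure the spread within it.

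Many autism risk genes act early, in the nucleus of developing neurons, where proteins such as CHD8, ARID1B and the KDM5 demethylases set how DNA is packed and which genes can be read. Others act later, at the membrane and the synapse, where SCN2A carries sodium current, ankyrins anchor channels, and SHANK and neuroligin proteins assemble excitatory contacts. ASH1L, the enzyme whose gene is floxed here, is a histone H3 lysine methyltransferase and is itself counted among autism risk genes.

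Of 50191 barcodes, 23005 were kept: those in which 500 or more genes were detected and mitochondrial transcripts made up no more than 10% of UMIs. The libraries held 7083225 to 11859209 UMIs, of which 5316785 to 9460628 were in kept cells, with a median of 1241.5 to 2133 UMIs per cell. Any pair of libraries shared 2 to 6 cell barcodes. Cells were sorted into 12 gates by 8 marker genes each, none of them one of the 38 genes. A cell joined the gate with the most markers detected, at least 2 and with no tie, and 15223 cells (66.2%) did so. The names below mean cells that resemble a type by these markers. In 7 gates every embryo had at least 20 cells, and each of the 7 had at least 4 of its own markers, and none of another gate's, among its 10 leading genes. Because cells were sorted by these same markers, this is no independent check of the names. The gates held 2088 radial glia, 747 intermediate progenitors, 5531 migrating excitatory neurons, 3326 upper-layer neurons, 1689 deep-layer neurons, 1295 interneurons and 311 Cajal-Retzius cells. Doublets were not removed.

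Ash1l served as the check of the labels. Its level in all cells, in CPM, a measure of the gene's share of all UMIs after normalisation for library size, was 157, 154, 165 and 125 in mutants 10, 11, 12 and 17. Controls 14, 15 and 16 had 166, 217 and 207. The groups did not overlap, although mutant 12 and control 14 nearly met. The log2 fold change was −0.39 (SE 0.12; edgeR quasi-likelihood test, adjusted p = 0.327), and whether these counts fall inside the deleted part is not given. Esr1, whose ligand-binding part is in CreERT2 and cannot be told apart from it, had 5.71 to 13.6 CPM in mutants and 0.53 to 1.58 CPM in controls (edgeR, adjusted p = 0.00305). Xist was near absent in mutant 11 and control 15, at 0.369 and 2.23 CPM, and between 796 and 1374 CPM in the other 5 embryos.

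Promoter sequence is shown for 4 genes picked for their differences between cell types in either direction: Scn2a1, the gene with the largest rise from radial glia to layer neurons, Cntnap2 and Ctnnb1, those with the largest falls, and Reln, the one furthest up in interneurons. Each run is the 150 bases before a RefSeq start site (GRCm38.p6), 5′ to 3′ on the gene's strand, with the dinucleotide CG in capitals. The positions are chr2:65620619-65620768 (plus strand) for Scn2a1, chr6:45059911-45060060 (plus) for Cntnap2, chr9:120933250-120933399 (plus) for Ctnnb1 and chr5:22344706-22344855 (minus) for Reln.
Scn2a1: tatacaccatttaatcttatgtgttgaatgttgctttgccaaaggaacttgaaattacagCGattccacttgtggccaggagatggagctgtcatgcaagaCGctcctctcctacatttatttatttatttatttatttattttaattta
Cntnap2: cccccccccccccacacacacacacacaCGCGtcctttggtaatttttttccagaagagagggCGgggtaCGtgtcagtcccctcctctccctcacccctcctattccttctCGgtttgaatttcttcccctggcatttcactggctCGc
Ctnnb1: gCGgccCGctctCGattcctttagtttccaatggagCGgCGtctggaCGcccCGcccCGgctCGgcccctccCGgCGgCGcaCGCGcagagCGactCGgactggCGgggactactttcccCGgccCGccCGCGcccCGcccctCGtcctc
Reln: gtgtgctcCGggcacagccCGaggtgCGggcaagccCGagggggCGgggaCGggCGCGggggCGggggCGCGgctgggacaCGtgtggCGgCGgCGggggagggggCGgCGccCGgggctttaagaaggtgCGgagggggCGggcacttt
The CG motif reads the same on both strands. In the 250 bases before these starts it occurred 2 times for Scn2a1, 13 for Cntnap2, 35 for Ctnnb1 and 37 for Reln. Of all 32851 windows of that length, 81.2%, 31.5%, 2.97% and 2.2% held at least as many. The counts depend on the start chosen: another start of Scn2a1, Cntnap2 and Ctnnb1 had 9, 3 and 43 (40.3%, 71% and 0.712%). The median of all windows was 6. For 31 of the 39 genes a window was found, 47 windows in all, with a median of 16 CG and a range of 0 to 51. These counts describe the letters only.

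Between cell types these genes differed widely. From radial glia, the stem cells of the cortex, to layer neurons (the mean of the deep-layer and upper-layer gates), 18 of 36 genes tested were higher and 8 lower (edgeR quasi-likelihood test with a term for each embryo, Benjamini-Hochberg adjusted p under 0.05). That is 50% higher and 22.2% lower, where over all 9615 genes tested 33.2% were higher and 33.7% lower. The median log2 difference was 0.17 over the 36 genes and near 0 (−0.0042) over all genes. Adnp and Tcf7l2, the other two genes, had too few UMIs to be tested there, 235 and 187 in all kept cells.

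Of 8 synaptic and membrane genes, 6 were higher in layer neurons and 1 lower, against 33.2% and 33.7% of all genes. Scn2a1, which encodes a voltage-gated sodium channel (annotated as Scn2a, chr2:65620771-65767447), stood at 21.8 ± 8.94 CPM in radial glia (SD, n = 7) and 19.9 ± 9.07 in intermediate progenitors. It reached 57.1 ± 13.2 CPM in migrating neurons, 101.9 ± 18.02 in upper-layer and 189 ± 44.9 in deep-layer neurons. The deep-layer gate was the highest in all 7 embryos, and the log2 difference of layer neurons from radial glia was 2.62 (SE 0.16; edgeR, adjusted p = 1.02e-19). Dscam, an adhesion molecule of the immunoglobulin superfamily, rose by a log2 difference of 2.11, and Ank2, a membrane anchor, by 1.41. Shank3, Shank2 and Nlgn3, of the postsynaptic side, rose by 1.08, 0.65 and 0.33.

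Cntnap2 went the other way. This neurexin-family adhesion protein (chr6:45059357-47304213) had a mean of 86.6 ± 26.9 CPM in radial glia and 22 ± 4.75 in upper-layer neurons (SD, n = 7), a log2 difference of layer neurons from radial glia of −1.31 (SE 0.12; edgeR, adjusted p = 2.96e-13). Its highest level by far was in Cajal-Retzius cells, 256 ± 68.0 CPM with a range of 149 to 352, above every radial glia value (34.3 to 116). Reln, the extracellular glycoprotein that Cajal-Retzius cells secrete to guide migrating neurons, was likewise highest in that gate in all 7 embryos. It measured 14924 ± 2387 CPM there and 62.0 to 156 CPM on average in the other 6 gates.

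**Figure D1:**
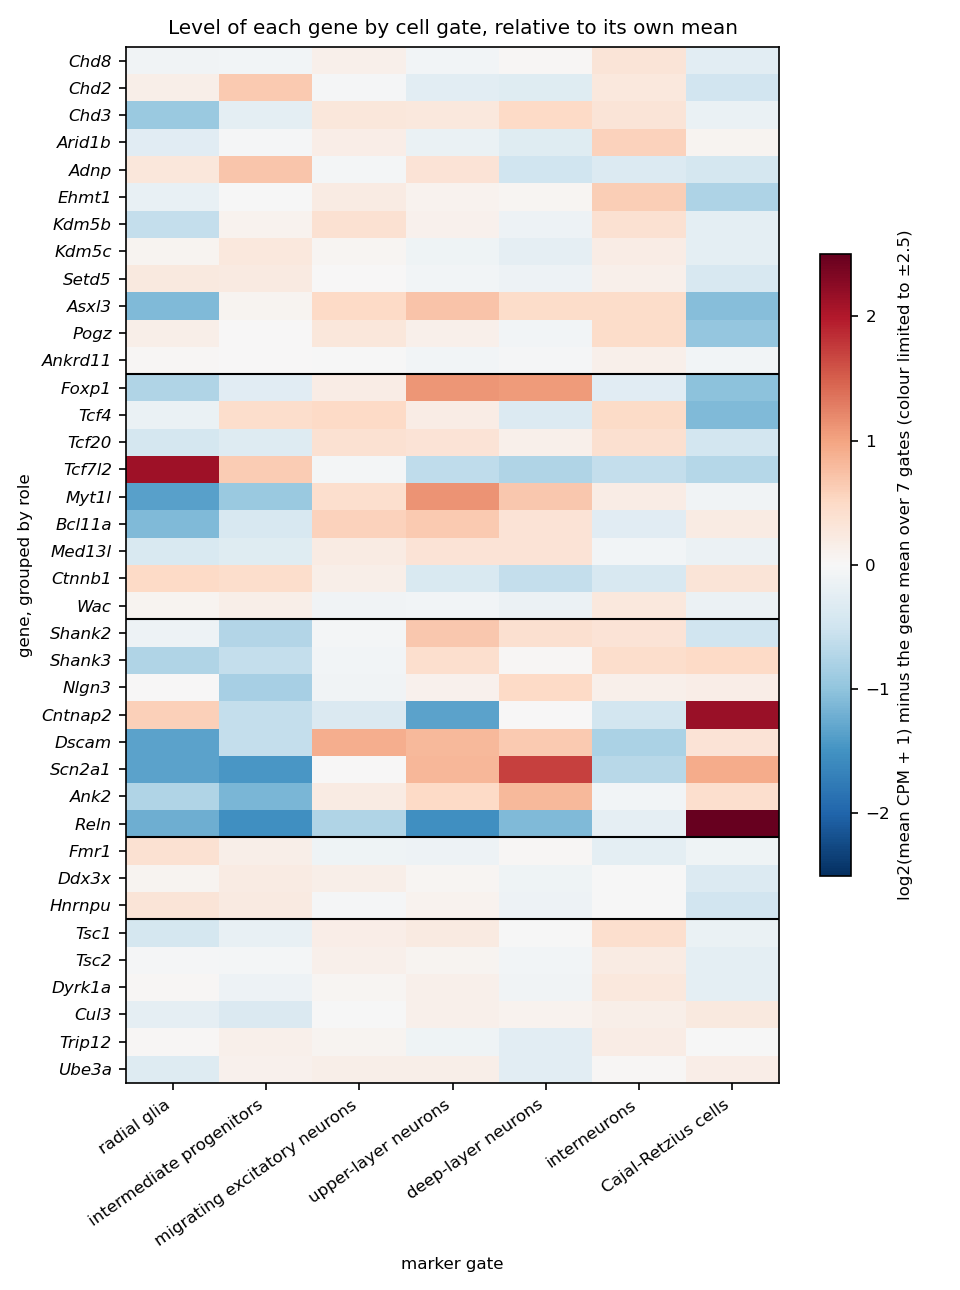
Level of each of the 38 genes (rows, grouped by role, divided by lines) in the 7 gates (columns), as log2(mean CPM + 1) minus the gene's own mean over the gates, with colour limited to ±2.5. Reln and Cntnap2 stand out in Cajal-Retzius cells, Tcf7l2 in radial glia, and Scn2a1 in deep-layer neurons, where its mean was 189 CPM.

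Of 8 transcription factors and coregulators, 5 were higher in layer neurons and 1 lower, against 33.2% and 33.7% of all genes. Myt1l, a zinc-finger factor that holds neurons in their identity (chr12:29528384-29923213), had its peak in the upper-layer gate in all 7 embryos. Its means were 105 ± 31.6 CPM in radial glia, 141 ± 43.5 in intermediate progenitors, 359 ± 49.2 in migrating neurons, 585 ± 96.5 in upper-layer and 428 ± 94.8 in deep-layer neurons (SD, n = 7). The level climbed at each of these steps up to the upper layers in 6 of 7 embryos. The log2 difference of layer neurons from radial glia was 2.27 (SE 0.095; edgeR, adjusted p = 1.34e-26). Foxp1, a forkhead repressor, rose by 1.88, and Bcl11a, a zinc-finger factor of cortical neurons, by 1.63. Tcf20 and Med13l, both transcriptional coregulators, rose by 0.68 and 0.76.

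Ctnnb1 was the factor that fell. It encodes beta-catenin, which links cadherins to the cytoskeleton and carries the Wnt signal to the nucleus (chr9:120929216-120960507). Its level was 1171 ± 82.9 CPM in radial glia, 919 ± 51.0 in migrating neurons, 638 ± 51.4 in upper-layer and 549 ± 29.9 in deep-layer neurons (SD, n = 7), falling from radial glia through migrating to upper-layer neurons in all 7 embryos. The log2 difference was −0.98 (SE 0.046; edgeR, adjusted p = 1.36e-24). An exon of Ulk4 lies on the opposite strand of Ctnnb1, and the strand setting of the counting is not given. Tcf7l2, a partner of beta-catenin on DNA, had 16.4 ± 6.17 CPM in radial glia and 1.38 ± 1.34 in deep-layer neurons.

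Of 11 chromatin genes, 4 were higher in layer neurons and 3 lower, near the shares over all genes (33.2% higher and 33.7% lower). Asxl3, a partner of a histone H2A deubiquitinase, rose by a log2 difference of 1.73 and Chd3, a remodeller of the NuRD complex, by 1.32. Kdm5b and Ehmt1, a histone demethylase and a histone methyltransferase, rose by 0.60 and 0.29. Chd2, a remodeller, fell by 0.41 on the log2 scale, Setd5 by 0.32 and Kdm5c by 0.23. Chd8, Arid1b, Pogz and Ankrd11 lay between −0.11 and 0.091 with adjusted p from 0.311 to 0.409 (edgeR).

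All 3 RNA-binding genes had lower estimates in layer neurons, and 2 passed the test, where 33.7% of all genes were lower. Fmr1, whose protein holds back translation of neuronal mRNAs (chrX:68678541-68717963), was highest in radial glia in all 7 embryos, at 191 ± 31.5 CPM against 134 ± 12.7 in upper-layer and 148 ± 16.0 in deep-layer neurons (SD, n = 7). Its log2 difference was −0.43 (SE 0.070; edgeR, adjusted p = 4.66e-07), and that of Hnrnpu, a nuclear ribonucleoprotein, −0.34. Among growth signalling genes and ubiquitin ligases, 3 of 6 were higher and 1 lower, against 33.2% and 33.7% of all genes. Tsc1, a brake on mTOR, was at 0.57, Cul3 at 0.32, Ube3a at 0.25 and Trip12 at −0.20. Tsc2 was at 0.010 (SE 0.12) and Dyrk1a at 0.0083 (SE 0.081).

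Deep-layer and upper-layer neurons differed in 11 of 36 genes, 5 higher in the deep layers (13.9%, against 10.6% of all genes) and 6 lower (16.7%, against 9.01%). The genes higher in deep-layer neurons were Cntnap2 (log2 difference 1.38, SE 0.17), Scn2a1 (0.96, SE 0.12), Nlgn3 (0.46), Ank2 (0.35) and Chd3 (0.27), 4 of them membrane or synapse genes. Those lower were Tcf4 (−0.49), Myt1l (−0.43), Ube3a (−0.37), Bcl11a (−0.28), Ctnnb1 (−0.18) and Hnrnpu (−0.17), 4 of them transcription factors or coregulators. Without cells that also carried markers of a second class the count was 5 of 36, with Cntnap2, Scn2a1, Tcf4, Myt1l and Bcl11a still past the threshold. Leaving out 1 embryo ended the call for Nlgn3 (adjusted p = 0.145 without control 16 and 0.068 without control 15, edgeR), and likewise for Bcl11a without control 14 (0.0549) and Ctnnb1 without mutant 10 (0.0551).

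Interneurons, compared with layer neurons, showed 14 genes higher (38.9%, against 16.7% of all genes) and 7 lower (19.4%, against 18.4%). Of 11 chromatin genes 7 were higher and none lower. Arid1b, a subunit of the BAF remodelling complex (chr17:4994332-5347656), peaked in interneurons in all 7 embryos at 178 ± 22.8 CPM. The next gate, migrating neurons, had 133 ± 8.32 (SD, n = 7), and the ranges did not overlap. The log2 difference of interneurons from layer neurons was 0.80 for Arid1b (SE 0.091; edgeR, adjusted p = 4.12e-10), 0.55 for Chd2, 0.54 for Ehmt1, 0.43 for Pogz, 0.40 for Kdm5b, 0.38 for Kdm5c and 0.37 for Chd8. Reln was up by 1.198 and Tcf4, a basic helix-loop-helix factor, by 0.56. Smaller differences were those of Wac (0.39), Trip12 (0.38), Tsc1 (0.31), Dyrk1a (0.25) and Tcf20 (0.19). On the lower side stood Scn2a1 (−2.03), Dscam (−1.55), Foxp1 (−1.34), Bcl11a (−0.75), Ank2 (−0.72), Myt1l (−0.71) and Med13l (−0.44).

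**Figure D2:**
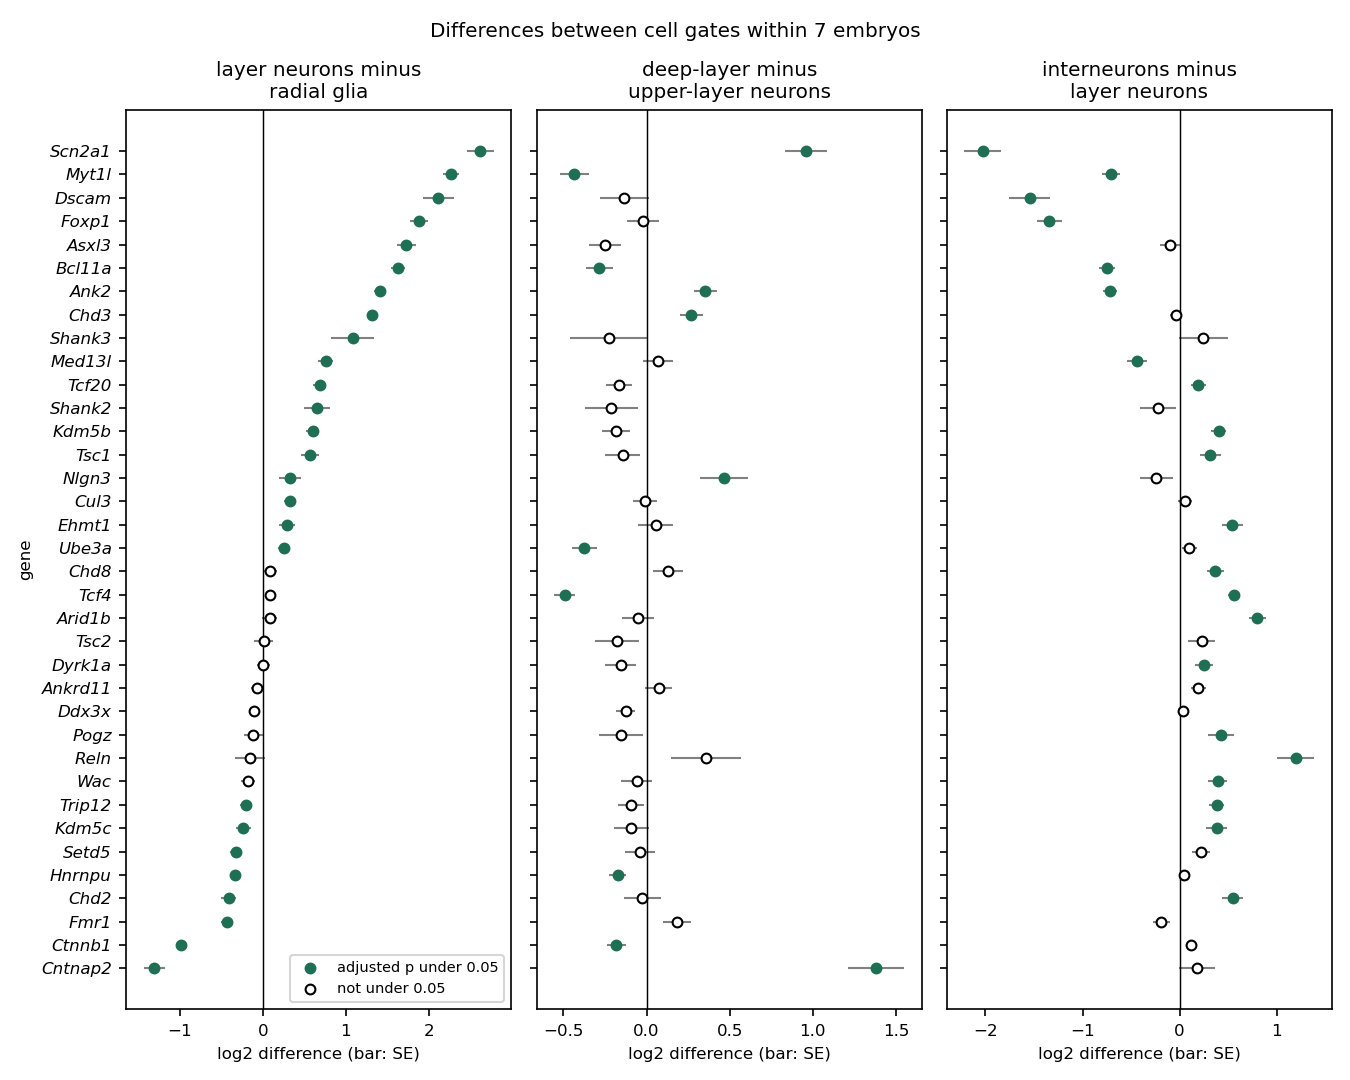
Log2 difference (points) with its standard error (bars) for the 36 genes tested in 3 contrasts between gates within 7 embryos. Filled points have an adjusted p under 0.05 (edgeR); Scn2a1 lies at 2.62 in the left panel and at −2.03 in the right one.

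By its mean over embryos, the highest of the 7 gates was interneurons for 11 genes, Cajal-Retzius cells, deep-layer neurons, radial glia and upper-layer neurons for 5 each, intermediate progenitors for 4 and migrating neurons for 3. For only 6 genes was this gate the same in all 7 embryos, namely Reln and Cntnap2 (Cajal-Retzius cells), Scn2a1 (deep-layer), Myt1l (upper-layer), Arid1b (interneurons) and Fmr1 (radial glia). The other 32 changed their highest gate from embryo to embryo. Without cells marked for a second class 27 of the 38 kept their highest gate by mean, and 3 genes had 1 highest gate in all embryos. Ankrd11 was the flattest, with 208 ± 33.0 CPM in its highest gate and 181 ± 78.9 in its lowest.

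Mutant and control embryos were then compared. In all cells, 0 of the 38 genes passed the adjusted threshold in edgeR, where 0.031% of all 12893 genes tested did, and DESeq2 called 0 of the 38 as well. At an unadjusted p under 0.05 edgeR had 9 of them and DESeq2 10. Tsc2, Kdm5c, Pogz and Chd8 were on the higher side in mutants (4 of 38, against 5.05% of all genes), and Foxp1, Myt1l, Fmr1, Nlgn3 and Ank2 on the lower side (5 of 38, against 5.48%). The median log2 fold change over the 38 genes was −0.015 and over all genes 0.0025. Of the 38, 18 estimates were positive and 20 negative, from −0.39 to 0.41. Without control 15 the count of 9 in edgeR became 3. In sums over all cells, fewer cells of a type and less RNA per cell cannot be told apart. Most genes named below were picked by their p from these same values, so groups that do not overlap are no further evidence. The share of all genes without overlap in all cells was not computed.

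Among growth signalling genes, Tsc2 had the smallest p. Tsc2 encodes tuberin, which with TSC1 restrains mTOR (chr17:24595816-24632630). Its level in all cells was 70.5, 64.7, 70.9 and 68.7 CPM in mutants 10, 11, 12 and 17. Controls 14, 15 and 16 had 60.9, 47.9 and 46.4 CPM. Every mutant was above every control, and control 14 lay closer to the mutants than to the other controls. The log2 fold change was 0.41 (SE 0.12, n = 4 and 3; edgeR, unadjusted p = 0.00401, adjusted p = 0.305). Exons of Tsc2 and Pkd1 share bases on opposite strands, and Pkd1 moved by 0.39 (edgeR, adjusted p = 0.372). Its 56.7 to 73.6 CPM in mutants lay above the 40.2 to 51.5 of controls, and reads of either gene may be in these values. The same limit holds in the gates below. There Pkd1 was at 0.30 in deep-layer neurons, 0.52 in upper-layer neurons and 0.43 in interneurons. Dyrk1a, a kinase gene with dosage-sensitive effects on brain growth, stood at 0.22 in all cells.

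Chromatin genes with higher estimates in mutants came next. Kdm5c, an X-linked demethylase of histone H3, had 103, 82.4, 118 and 95.0 CPM in mutants 10, 11, 12 and 17 and 83.7, 57.8 and 83.6 in controls 14, 15 and 16. The groups overlapped only at mutant 11, which lay below 2 of the controls. In each group the embryo with near-absent Xist had the lowest Kdm5c. Among the embryos with high Xist, Kdm5c ranged from 95.0 to 118 CPM in mutants and from 83.6 to 83.7 in controls; in the pair with low Xist it was 82.4 and 57.8. The log2 fold change was 0.41 (SE 0.15; edgeR, adjusted p = 0.383) and 0.38 with a term for low Xist (adjusted p = 0.406). Without control 15 it was 0.26.

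Chd8, among the most often cited autism genes, had 200.2, 198, 199 and 194 CPM in the mutants. Its 3 controls had 158, 169 and 181 CPM. The mutants lay close together and above every control, and the log2 fold change was 0.22 (SE 0.098; edgeR, adjusted p = 0.449). Pogz, a zinc-finger protein of heterochromatin, had 79.6 to 99.0 CPM in mutants and 74.1 to 79.5 in controls, the lowest mutant and the highest control nearly equal (log2 fold change 0.26, SE 0.11; edgeR, adjusted p = 0.44).

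On the lower side were both a forkhead and a zinc-finger factor. Foxp1 (chr6:98925338-99522721) had 91.6, 81.7, 82.0 and 93.3 CPM in mutants 10, 11, 12 and 17. Controls 14, 15 and 16 had 94.1, 136 and 113 CPM. Mutants were lower without overlap, but mutant 17 and control 14 nearly met, and the log2 fold change of −0.39 (SE 0.13; edgeR, adjusted p = 0.327) was −0.25 without control 15. Myt1l had 340, 353, 248 and 343 CPM in the mutants and 381, 416 and 433 in the controls. All mutants were below all controls, with mutant 12 furthest down (log2 fold change −0.35, SE 0.13; edgeR, adjusted p = 0.377).

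Both factors had their highest mean in the upper-layer gate, Myt1l in all 7 embryos but Foxp1 in only 3 of 7. Foxp1 had 160 CPM there and 155 in the deep-layer gate. It was also among the 10 leading genes of the striatal gate, which held 0 to 12 cells per embryo and was not tested. The summed level of the 8 upper-layer markers was lower too in all cells, 940 to 1053 CPM in mutants and 1140 to 1177 in controls. The upper-layer gate held 12.9% ± 1.15 of mutant cells and 16.6% ± 0.538 of control cells (SD, n = 4 and 3; exact permutation test, two-sided, p = 0.0286, the smallest that 35 assignments can give). The part of these shares in the Myt1l and Foxp1 values was not tested. Some of the gate's own markers were listed as lower in mutants by earlier results on these data, and without the 6 such layer markers the difference was −1.38 percentage points (exact permutation test, p = 0.114). Within the upper-layer gate the log2 fold changes were −0.34 for Myt1l and −0.36 for Foxp1.

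Among synaptic and RNA-binding genes, 3 had lower estimates with an unadjusted p under 0.05. Fmr1 had 132, 142, 125 and 120 CPM in mutants 10, 11, 12 and 17 and 161, 155 and 154 in controls 14, 15 and 16. All mutants were below all controls. The log2 fold change was −0.27 (SE 0.10; edgeR, adjusted p = 0.391), and it was −0.27 with a term for low Xist too. Nlgn3, a postsynaptic adhesion gene on the X, had 34.1 to 47.4 CPM in mutants and 49.8 to 57.0 in controls (−0.32, SE 0.13; edgeR, adjusted p = 0.417). Ank2 had 276 to 321 CPM and 331 to 377 CPM (−0.23, SE 0.10; edgeR, adjusted p = 0.461). Scn2a1 was at −0.33 (SE 0.17; edgeR, adjusted p = 0.52), with 41.1 CPM in mutant 12, 73.6 to 77.0 in the other mutants and 77.4 to 88.9 in controls. Nlgn3, Ank2 and Scn2a1 had their highest mean in the deep-layer gate, which held 5.96% ± 1.35 of mutant cells and 8.80% ± 0.847 of control cells (SD, n = 4 and 3; exact permutation test, two-sided, p = 0.0571). This share differed by −2.84 percentage points, and by −2.04 without the 6 layer markers (exact permutation test, p = 0.0571). Without cells marked for a second class it differed by only −0.84 (exact permutation test, p = 0.343). The summed deep-layer markers in all cells were at 567 to 734 CPM in mutants and 709 to 829 in controls, overlapping. Of these markers 4 of 8 were lower at an unadjusted p under 0.05 in edgeR, against 5.48% of all genes. The list includes Foxp2, Sox5 and Hs3st4, among the 6 layer markers that earlier results on these data listed as lower in mutants. The part of the deep-layer share and markers in the 3 values was not tested. Ddx3x, the fourth X-linked gene, an RNA helicase, was at −0.021. Reln was at 0.34 (SE 0.17), with mutant 10 the highest at 700.3 CPM, and at 0.15 without that embryo.

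**Figure D3:**
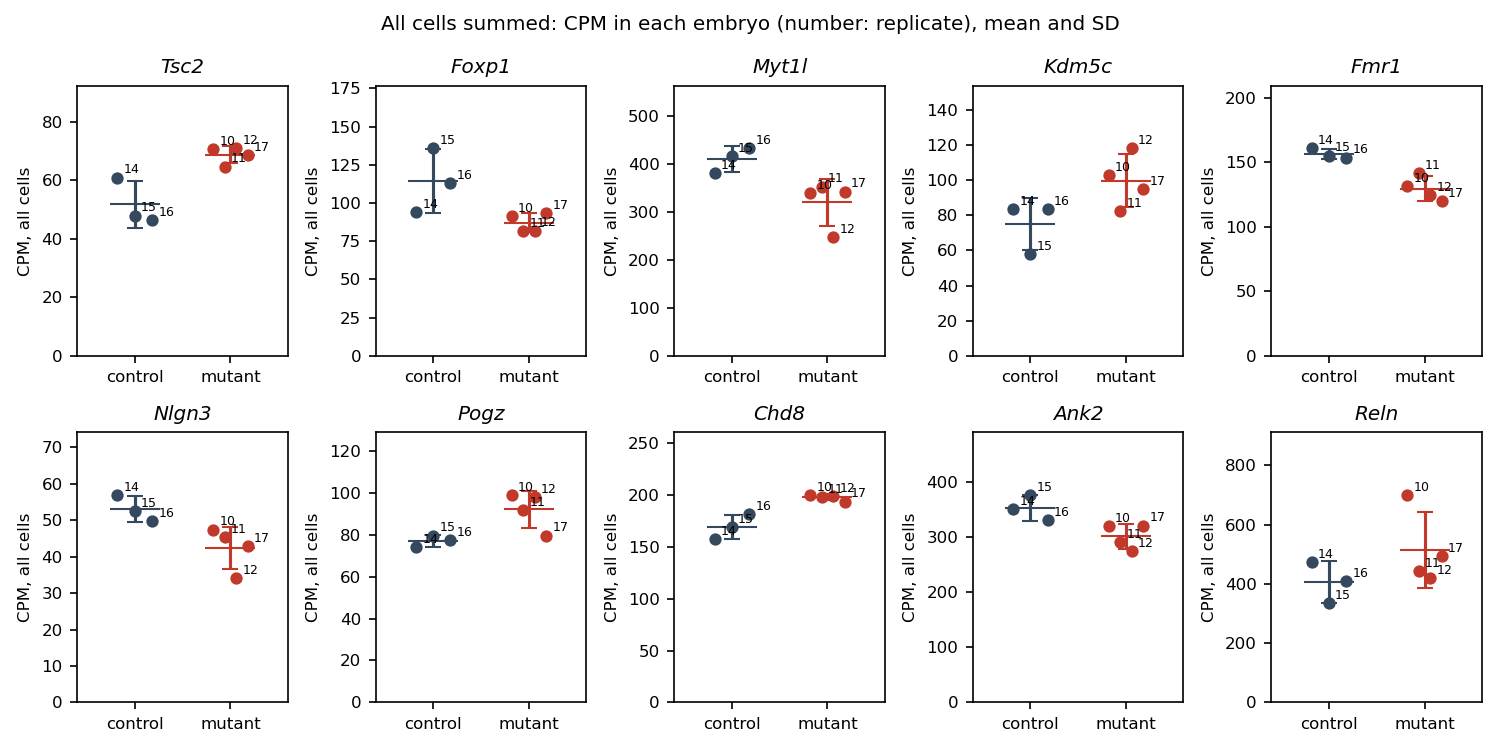
CPM in all cells for the 10 genes with the smallest p, one point per embryo labelled by its replicate number, with the mean and SD of 3 controls and 4 mutants. For Tsc2, Chd8 and Pogz all 4 mutants lie above the 3 controls, and for Foxp1, Myt1l, Fmr1, Nlgn3 and Ank2 below them. The genes were picked by p from these same values, so their separation is no further evidence. No adjusted p passed 0.05.

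In deep-layer neurons, which project below the cortex, 0 of 36 genes passed the adjusted threshold in edgeR, against 0.0228% of all 8755 genes, and 0 in DESeq2. At an unadjusted p under 0.05 edgeR had 3 higher (8.33%, against 4.13% of all genes) and 1 lower (2.78%, against 3.61%), and DESeq2 had 2. Markers of other classes were summed in this gate too. The migrating-neuron markers tested (7 of 8) were at 979 to 1088 CPM in mutants and 952 to 973 in controls, without overlap. Of these, 0 had an unadjusted p under 0.05 (edgeR). The upper-layer markers (7 of 8) were at 529 to 612 and 630.3 to 660.01, without overlap, and 1 was lower at that threshold. The radial glia markers (3 of 8) were at 62.5 to 124 and 40.5 to 70.1, with overlap, and 2 of 3 were higher at it. No marker of these lists passed the adjusted threshold. The sums themselves were not tested, and how often sums of other genes lie apart was not computed. Summed markers of intermediate progenitors, interneurons, striatal neurons, Cajal-Retzius cells and meningeal fibroblasts also overlapped between the groups. The upper-layer list includes Rorb, Inhba and Gucy1a3, among the 6 layer markers that earlier results listed as lower in mutants. The part of these markers in the genotype values of this gate was not tested. Tsc2 had 52.9, 75.1, 81.6 and 62.4 CPM in mutants 10, 11, 12 and 17 and 44.5, 44.1 and 36.9 in controls 14, 15 and 16. The groups were apart (log2 fold change 0.69, SE 0.23; edgeR, adjusted p = 0.338). Kdm5c, at 79.4 to 109 CPM in mutants and 48.8 to 68.3 in controls, was apart too (0.59, SE 0.20; edgeR, adjusted p = 0.38), and at 0.16 with gates that left out the 6 layer markers. Ehmt1, a histone methyltransferase, went from 124 to 138 CPM in controls to 78.6 to 111 in mutants (−0.41, SE 0.17; edgeR, adjusted p = 0.521). Nlgn3 was at −0.42 (SE 0.21) and Myt1l at −0.29 (SE 0.15), both with overlapping groups, and Nlgn3 was at −0.047 without the 6 layer markers and Myt1l at −0.12 without control 15.

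Reln in the deep-layer gate was carried by few embryos. It had 40.9, 69.5, 139 and 151 CPM in mutants 10, 11, 12 and 17 and 43.2, 59.6 and 76.4 in controls 14, 15 and 16. Mutants 12 and 17 were high, and mutants 10 and 11 lay within or below the control range. The log2 fold change of 0.76 (SE 0.26; edgeR, adjusted p = 0.34) became −0.019 once cells with markers of a second class were left out, and 0.41 without mutant 17. Of the 8 Cajal-Retzius markers in the same gate, Trp73, Lhx5 and Lhx1 had 0 to 2 UMIs in every embryo. Ndnf had 11 UMIs in mutant 17 and 0 to 3 in the other 6 embryos, and Calb2 had 16 and 15 in mutants 12 and 17 and 1 to 8 elsewhere. Others had their highest raw count in controls. Nhlh2 had 13 UMIs in controls 15 and 16 and 3 to 8 in mutants. Cacna2d2 had 9 in control 15 and 1 to 7 in mutants, and Ebf3 had 4 in control 16 and 0 to 2 in mutants. These counts are not scaled to the UMIs of the gate, which differed between embryos. Reln had 46 UMIs at 139 CPM in mutant 12 and 85 UMIs at 76.4 CPM in control 16. The raw counts therefore do not say in which group the marker levels were higher. The part of these markers in the Reln value was not tested.

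In upper-layer neurons, which connect cortical areas, 0 of 36 genes passed the adjusted threshold in edgeR, against 0.0329% of all 9111 genes, and 0 in DESeq2. At an unadjusted p under 0.05, edgeR had 1 higher (2.78%, against 4.88% of all genes) and 2 lower (5.56%, against 4.61%), and DESeq2 had 1. Myt1l had 584, 507, 420 and 496 CPM in mutants 10, 11, 12 and 17 and 620, 604 and 682 in controls 14, 15 and 16. The groups did not overlap (−0.34, SE 0.12; edgeR, adjusted p = 0.386). Foxp1 rested on 1 embryo: control 15 had 232 CPM, the other controls 128 and 162, and the mutants 129 to 142. Its −0.36 (SE 0.16; edgeR, adjusted p = 0.477) was −0.09 without control 15. Kdm5c was at 0.41 (SE 0.19) and at 0.20 without control 15, Dyrk1a at 0.32, Tsc2 at 0.31 (0.19 without control 15) and Pogz at 0.26. With gates that left out the 6 layer markers Tsc2 was at 0.14 and Dyrk1a at 0.20.

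Interneurons lie outside the Emx1 lineage. Among 35 genes tested, 0 passed the adjusted threshold in edgeR, as did 0% of all 6910 genes, and 0 in DESeq2. At an unadjusted p under 0.05 edgeR had 1 higher (2.86%, against 3.59% of all genes) and 0 lower (against 3.26%), and DESeq2 had 0. This was Tsc2, with 70.6 to 103 CPM in mutants and 32.1 to 85.1 in controls, overlapping (0.65, SE 0.29; edgeR, adjusted p = 0.71). Control 14 was the high control there, and without it the value was 1.13, against 0.39 without control 16. Kdm5c was at 0.42, Ehmt1 at 0.38, Chd8 at 0.31, Bcl11a at −0.34 and Myt1l at −0.35, with adjusted p from 0.743 to 0.776 (edgeR). Without cells marked for a second class Kdm5c was at 0.21, Ehmt1 at 0.15 and Chd8 at 0.62. Ash1l itself was at −0.62 in deep-layer neurons (SE 0.17), −0.32 in upper-layer neurons (SE 0.13) and −0.12 in interneurons (SE 0.21). Its groups overlapped in deep-layer neurons and interneurons. The difference of its log2 fold changes between layer neurons and interneurons was −0.32 (SE 0.18, edgeR, adjusted p = 0.982). Between deep-layer and upper-layer neurons it was −0.31 (SE 0.16, edgeR, adjusted p = 0.865).

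**Figure D4:**
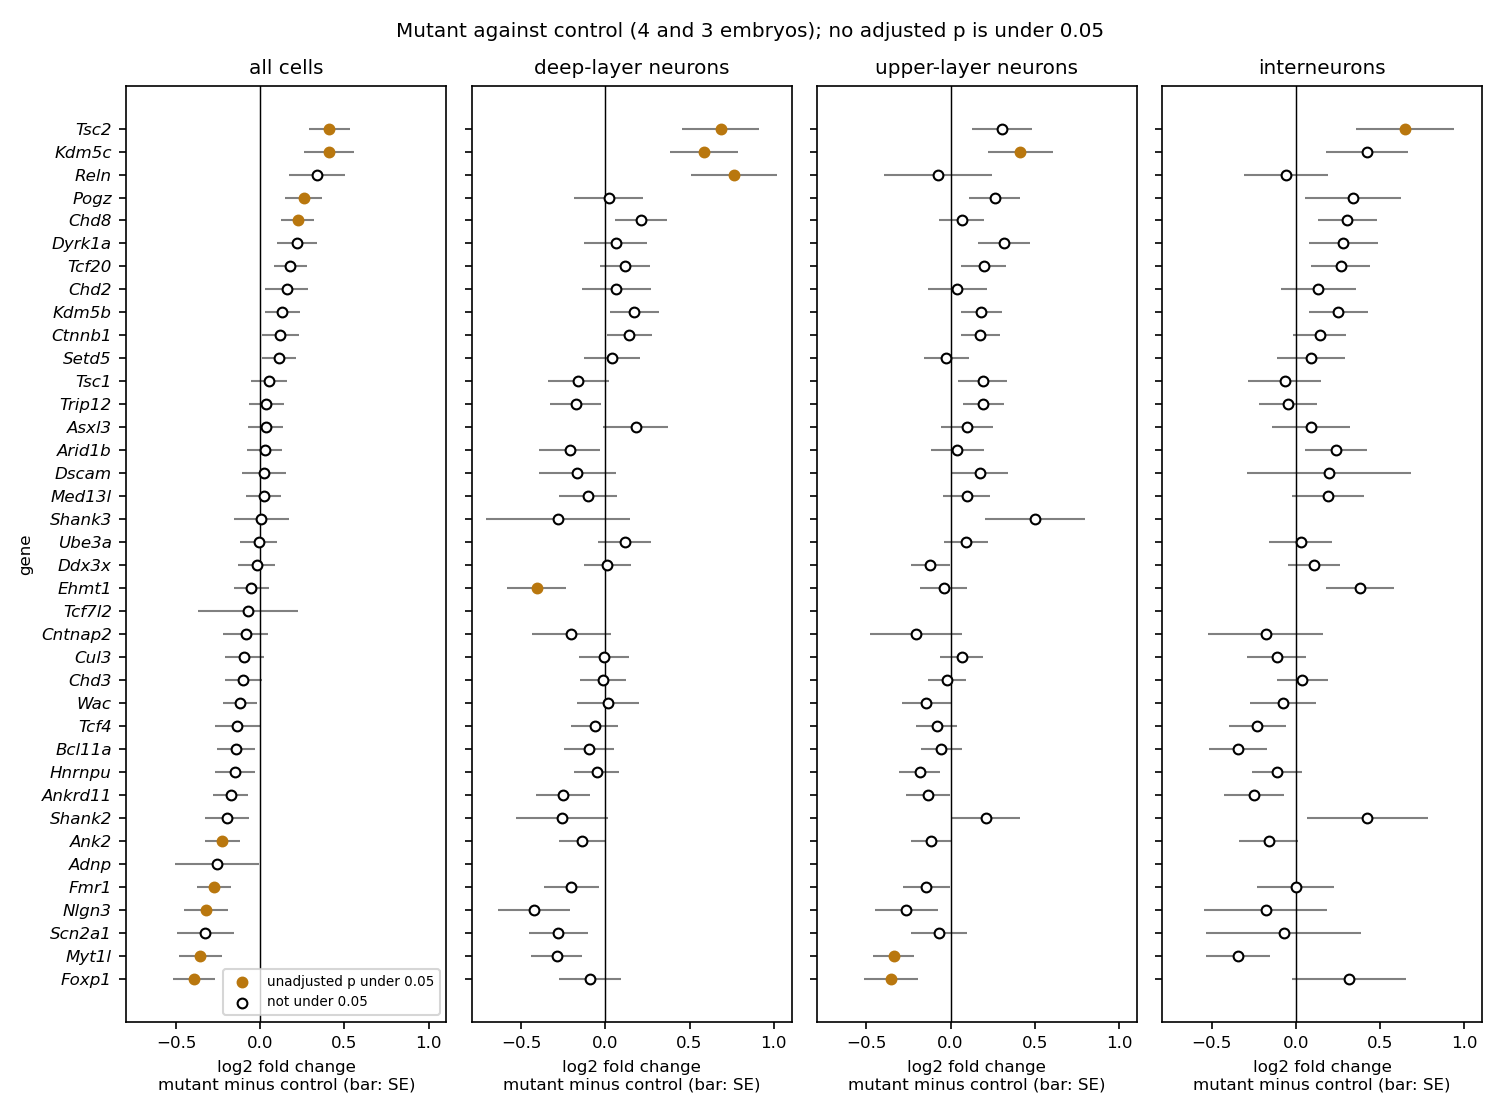
Log2 fold change of mutant against control (points) with its standard error (bars) in all cells and in 3 gates, with genes in the order of their value in all cells. Filled points have an unadjusted p under 0.05. Tsc2 lies to the right of 0 in all 4 panels, from 0.31 to 0.69, and Myt1l to the left, from −0.35 to −0.29. Reads of Pkd1 may be in the Tsc2 values.

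Whether the effect of the genotype differed between gates was tested directly. Between deep-layer and upper-layer neurons 0 of 36 genes passed the adjusted threshold in edgeR, against 0.117% of all 8564 genes. At an unadjusted p under 0.05 stood Reln (difference of log2 fold changes 0.77, SE 0.25; 3.23% of all genes were higher) and Trip12, a ubiquitin ligase (−0.37, SE 0.13; 2.5% were lower). Between layer neurons and interneurons 0 of 36 passed, as did 0% of all 8495 genes. Only Ehmt1 had an unadjusted p under 0.05 (−0.55, SE 0.20; 2.25% of all genes were lower), and no gene of the 36 on the higher side (2.54% were). For Tsc2, Kdm5c and Myt1l these 2 differences lay between −0.24 and 0.36, with unadjusted p of 0.162 or more in edgeR.

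Across the 7 gates, which share the same embryos, the mutant mean was above the control mean in all 7 for Tsc2, Kdm5c, Chd8, Pogz, Dyrk1a, Chd2 and Tcf20. It was below in all 7 for Myt1l, Fmr1, Nlgn3, Ank2, Tcf4 and Hnrnpu. How many of all genes keep 1 direction in all 7 gates was not computed, so these lists cannot be set against a usual rate. Mutants and controls did not overlap in 29 of 252 pairs of a gene and a gate (11.5%, 36 genes), against 7% of such pairs over the 9615 genes tested between cell types. These values are not independent, since 1 library gives all 7 gates of an embryo.

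**Figure D5:**
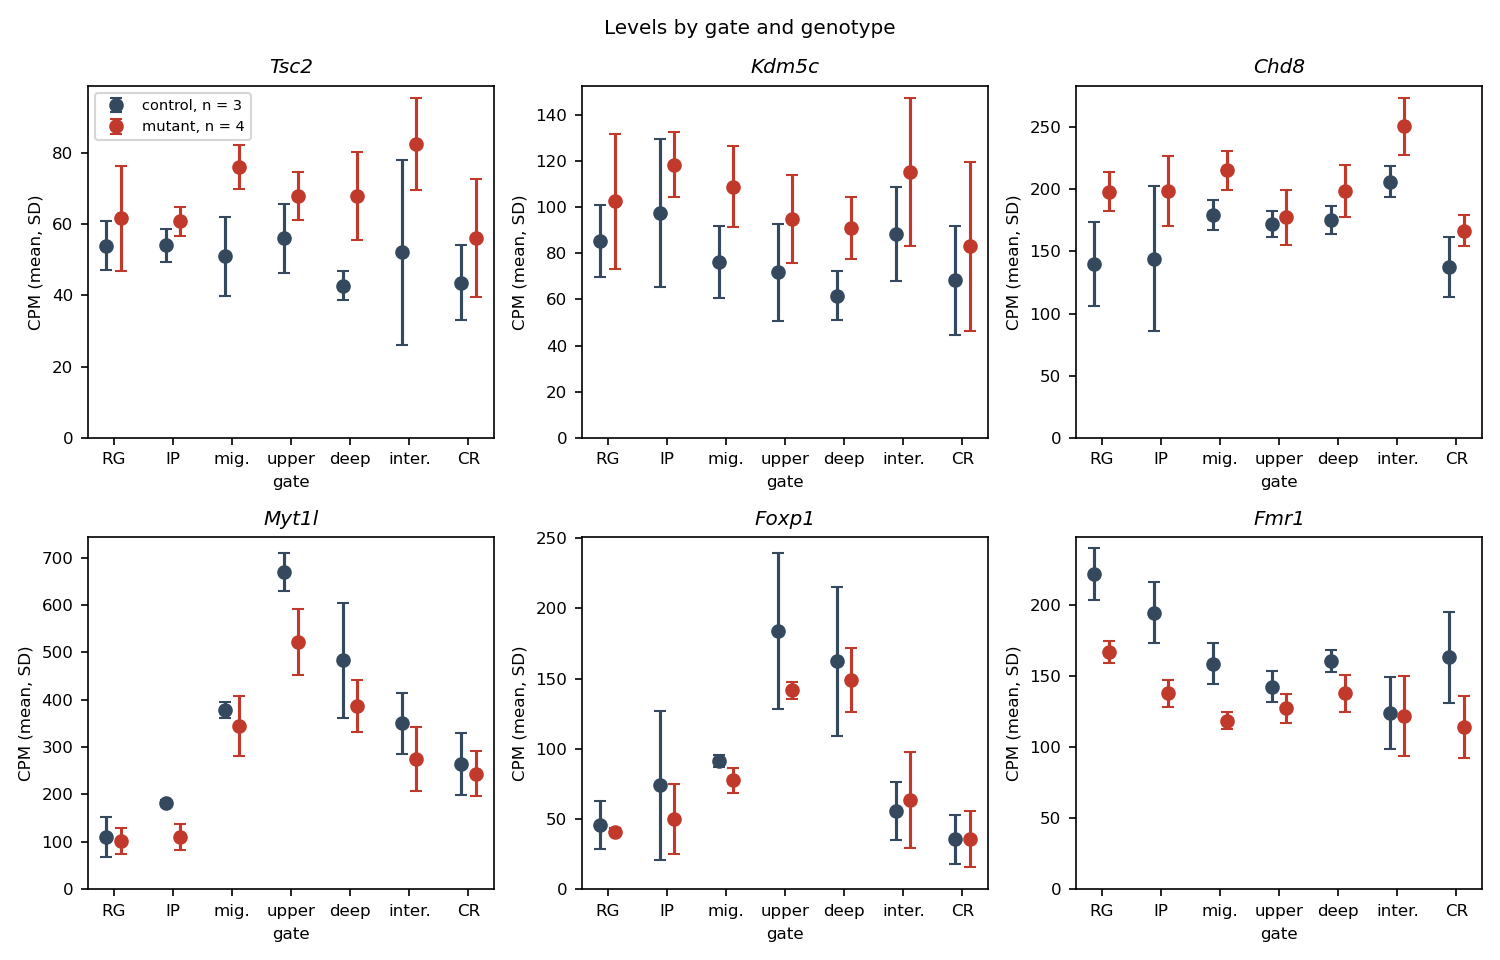
Mean CPM with SD in 3 controls and 4 mutants for 6 genes in the 7 gates (RG radial glia, IP intermediate progenitors, mig. migrating excitatory neurons, upper and deep the layer gates, inter. interneurons, CR Cajal-Retzius cells). Mutant means lie above control means in all 7 gates for Tsc2, Kdm5c and Chd8 and below them for Myt1l and Fmr1, whereas Foxp1 lies below in 5 and above in 2.

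The neighbours of these genes in their pathways were read from 9 lists of 138 genes. In all cells 0 of 137 tested genes passed the adjusted threshold in edgeR, and 4 were higher (2.92%, against 5.05% of all genes) and 12 lower (8.76%, against 5.48%) at an unadjusted p under 0.05. On the list of sodium channels and ankyrins, relatives of Scn2a1 and Ank2, 9 of 12 estimates were negative, with a median of −0.14. Within it Scn1a went from 26.9 ± 3.14 CPM in controls to 19.5 ± 2.47 in mutants (SD, n = 3 and 4; edgeR, adjusted p = 0.327). Scn3a, a sodium channel of the embryonic brain, went from 121 ± 7.39 to 99.6 ± 5.003 CPM. Of the partners and relatives of FMRP, 8 of 13 estimates were negative, with a median of −0.05. Hnrnpr at −0.29 and Syncrip at −0.23 had the smallest p on that list. Over all genes the median was 0.0025, and their share of negative estimates was not computed. Around TSC1 and TSC2, Depdc5, an inhibitor of mTORC1, went from 22.3 ± 1.51 to 30.5 ± 1.09 CPM (0.45; edgeR, adjusted p = 0.305), and the median of the whole list was −0.023.

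On the postsynaptic list Homer1, a scaffold protein, was at −0.26. Of the histone H3 methylation list, Psip1, a chromatin reader, was at −0.37 and Kdm4b at 0.29. Ctnnbip1, an inhibitor of beta-catenin, was at −0.38, and Lrp5, a Wnt coreceptor, at 0.59. Fyn, a kinase of the reelin pathway, was at −0.25 and Crkl, an adaptor in it, at 0.22. Ube3b was at 0.28, Klhl9 at 0.21, Eif4e at −0.22, Smarcc2 at −0.24 and Smarce1 at −0.21. Each had an adjusted p of at least 0.305 in edgeR. Between cell types the lists were far apart. Of 129 tested genes, 72 were higher in layer neurons than in radial glia (55.8%, against 33.2% of all genes) and 18 lower (14.0%, against 33.7%), with 16 of 19 postsynaptic genes and 9 of 10 sodium channel and ankyrin genes among the higher.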

How the data were processed

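The deposited tables hold whole-number UMI counts per gene symbol and cell barcode, 1 table per embryo. Per the submitters' processing notes the authors used STAR and mm10. Not given in the sources used here: versions, annotation, strand setting, and how barcodes were chosen or UMIs collapsed. The members and lists were chosen with earlier results of these data known.

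UMIs were summed per embryo over kept cells, and over each gate. Sums were tested with edgeR 4.0.16 (filterByExpr, TMM, quasi-likelihood, limma 3.58.1, R 4.3.3) over all genes with Benjamini-Hochberg adjustment; 12893 genes were tested in all cells. CPM values are TMM-scaled, within each comparison for the genotype and over all gates together for levels by gate, so they differ slightly. Gate shares were compared by exact permutation. DESeq2 1.42.0, other size factors, filters and gates, a term for low Xist, and each embryo left out were alternatives. Scripts (python 3.11.15, numpy 2.4.6, pandas 2.3.3, scipy 1.17.1, matplotlib 3.10.9) were tested on simulated data. No pair of libraries was a duplicate (chi-square per gene 4.97 to 25.8). Of the 138 related genes, 3 were matched under older symbols, and 1 gate marker was not used here. Gene coordinates are from GENCODE vM21 (GRCm38, the build also called mm10).

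Named with values were all members called between cell types, the 10 smallest p in all cells and the 6 smallest in each gate, members with 1 peak gate in all embryos, the X-linked members, and the 2 smallest p of each related list. An item that this rule would name is not reported here.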

Additional observations from a re-analysis of the deposited data

Results flagged for a closer look

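In 30 groups of 4 mutants, 1 embryo was tested for lying far from the other 3, by its gap to the nearest divided by the range (against Dixon's critical value), and 3 groups had one; chance gives about 1 in 20. Myt1l in all cells was 247.81 CPM in mutant 12 and 339.7 to 353.04 CPM in the other mutants. The share of cells in the deep-layer gate was 7.9648% in mutant 17 and 5.0619% to 5.4399% in the others. The share in the upper-layer gate was 11.147% in mutant 12 and 13.292% to 13.606% in the others. Without mutant 12 the log2 fold change of Myt1l in all cells was −0.25.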

How the results depend on the processing

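Of 417 values of named genes between genotypes under an alternative, 416 kept their direction and their side of the threshold, and Reln in deep-layer neurons turned to −0.019 without cells marked for a second class. No member was called between genotypes under any alternative run. Of 330 values between cell types, 316 kept their call and 14 lost it. Between deep-layer and upper-layer neurons 11 members were called, 5 without cells marked for a second class, and 5 with no replicate block (no term for the embryo). The members with 1 peak gate in every embryo went from 6 to 3 without cells marked for a second class. The upper-layer share differed by −3.78 percentage points, by −4.03 to −3.21 with 1 embryo left out (exact permutation p 0.0667 to 0.1, where 0.05 or 0.0667 is the smallest possible), by −3.58 with 3 markers per gate (p = 0.0571, exact permutation), and, in alternatives chosen after seeing the data, by −1.39 without cells marked for a second class (p = 0.286, exact permutation) and −1.38 with gates without 6 layer markers (p = 0.114, exact permutation). Members at an unadjusted p under 0.05 numbered 3 to 12 in all cells (3 without control 15), 1 to 7 in deep-layer neurons (7 without control 14), 1 to 7 in upper-layer neurons (1 without control 15, 6 without mutant 17) and 0 to 5 in interneurons. All genes called numbered 3 to 27 in all cells (25 in DESeq2), 0 to 37 in deep-layer neurons, 0 to 44 in upper-layer neurons and 0 to 11 in interneurons. No paired analysis was possible because mutants and controls share no replicate number. Intervals by depth cover counting error only, and the 115 to 377 deep-layer cells per embryo limit the precision of that gate.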

Other observations

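Progenitors, migrating neurons and Cajal-Retzius cells entered no comparison between genotypes, and their values are given without a test. Fmr1 was lower in mutants without overlap in 4 of the 7 gates. Its level was 167 ± 7.71 CPM in mutants and 222 ± 18.4 in controls in radial glia (SD, n = 4 and 3), 138 ± 9.56 and 195 ± 21.4 in intermediate progenitors, 119 ± 6.05 and 159 ± 14.4 in migrating neurons, and 114 ± 21.9 and 163 ± 32.0 in Cajal-Retzius cells. Myt1l in intermediate progenitors was 110 ± 27.9 CPM in mutants and 182 ± 6.51 in controls. Asxl3 in the same gate was 85.4 ± 26.3 and 44.3 ± 7.52 CPM.

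Reln in Cajal-Retzius cells, the type that secretes it, was 16462 ± 1860 CPM in mutants and 12873 ± 930 in controls, and Ctnnb1 there was 1142 ± 125 and 909 ± 49.0 CPM, both without overlap. These are picks from the 29 of 252 pairs of a gene and a gate without overlap (11.5%, against 7% over all genes tested). Chd8 in radial glia was 198 ± 16.1 CPM in mutants and 140 ± 34.0 in controls. In migrating neurons Tsc2 was 76.2 ± 6.21 and 51.0 ± 11.1 CPM, and Kdm5c 109 ± 17.6 and 76.3 ± 15.7 CPM. The gates of 1 embryo share a library, and Cajal-Retzius sums rest on 40 to 56 cells per embryo.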
